A study of Mus musculus with 6 samples.

Results

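The SLC1 family of membrane transporters holds 7 genes in the mouse, Slc1a1 to Slc1a7, and the members were found by gene symbol among the 57127 genes listed in the whole-epididymis count table. The family was chosen because Slc1a1 had one of the largest falls between the genotypes, so the difference of Slc1a1 itself is given as a description and without a test. All 7 symbols were in the table. Of these, 5 members passed edgeR's filter on low counts, among 19691 genes that did. Slc1a6 and Slc1a7 did not pass it.

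The transcriptomes came from the whole epididymis of adult C57BL/6 mice, 3 libraries from wild type (WT) males and 3 from Ocln-/- (Ocln-KO) males, and the comparison asks how mRNA levels differ when occludin, a tight junction protein, is missing. The knockout is not described as limited to a cell type. The Ocln-KO mice were bred from heterozygous parents, with the WT strain used to maintain the line. Whether the WT males were their littermates is not stated. The methods describe 3 pairs of mice extracted separately but also speak of pooled RNA. It is therefore not certain that each library is 1 mouse, and p-values measure only the spread between these libraries. The libraries held between 30646424 and 38870780 counts, and levels are given in CPM, counts per 1000000 of a library's effective size by TMM scaling, so that 1 count was worth between 0.0267 and 0.0314 CPM. Ocln was at 85.8, 78.7 and 91.7 CPM in the WT libraries and at 15.1, 15.3 and 14.9 CPM in those of Ocln-KO. Ocln-KO replicate 3 stood apart from the other Ocln-KO libraries, at 86.3 on the first principal component (47.2% of the variance) against 17.7 and 29.1, while WT lay between -52.8 and -37. One extraction text in the sample records names prefrontal cortex, whereas the tissue is given as epididymis. Summed proximal principal cell markers reached between 7821 and 15871 CPM in each library. The sum of 8 cortical markers was 20 to 23.6 CPM in WT and 27 to 28.3 CPM in Ocln-KO. Of these 8, 5 were tested and 1 was higher in Ocln-KO at an adjusted p under 0.05 (edgeR), against 3.91% of all tested genes. Among the cortical markers, Neurod6 and Mog had no count and Snap25 at most 3 counts in any library.

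SLC1 transporters use the sodium gradient to carry amino acids into cells. One branch, the excitatory amino acid transporters, takes up glutamate and aspartate together with sodium and protons in exchange for potassium, and comprises Slc1a1 (EAAC1 or EAAT3, the main carrier of this branch in kidney and gut epithelia), Slc1a2 (GLT-1) and Slc1a3 (GLAST), which clear glutamate in the brain as carriers of astrocytes, Slc1a6 (EAAT4, of Purkinje cells) and Slc1a7 (EAAT5, of the retina). The other branch, Slc1a4 (ASCT1) and Slc1a5 (ASCT2), exchanges small neutral amino acids such as alanine, serine and cysteine, and ASCT2 also carries glutamine. Glutamate is among the free amino acids concentrated in epididymal fluid.

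The branches differ at a substrate-site residue near the end of the protein. In the glutamate carriers an arginine here binds the side-chain carboxyl group of the substrate, and the neutral carriers have another residue. The coding sequences around this codon are shown because they separate the branch that holds Slc1a1 from the branch that holds Slc1a4 and Slc1a5. Each window is 30 coding bases, 5′ to 3′ on the strand of the gene, with the codon of the substrate-site residue in capitals, read from GENCODE transcripts of GRCm38.
Slc1a1: ctcctggaccggttcAGGaccatggtgaac
Slc1a2: ctgctggatagaatgAGAacttcagtcaat
Slc1a3: tttctggaccgcctcCGAaccaccaccaac
Slc1a6: ttccttgaccgacttCGTacaatgaccaat
Slc1a7: gcactggatcgcttcCGAaccatgattaat
Slc1a4: attgtggaccggaccACCactgtggtgaat
Slc1a5: ctagtggacaggtccTGTactgtcctcaac
The capitals encode arginine in the 5 glutamate transporters, threonine in Slc1a4 and cysteine in Slc1a5. The codon is number 446 of 523 in Slc1a1, 459 of 532 in Slc1a4 and 481 of 555 in Slc1a5. Each window crosses an exon junction, so that it encloses an intron in the genome: for Slc1a1 it lies at chr19:28909561-28911678 on the plus strand, for Slc1a4 at chr11:20304476-20306470 on the minus strand and for Slc1a5 at chr7:16796154-16797526 on the plus strand.

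In the epididymis the family was dominated by a neutral carrier, Slc1a5, and nearly all of its glutamate branch was Slc1a1. In Ocln-KO the level of Slc1a1 was a small fraction of that in WT, Slc1a4 fell from a mean of 35.9 to 20.1 CPM, and no difference was called for Slc1a2, Slc1a3 or Slc1a5. To compare genes with each other, CPM were divided by the length of each gene's longest protein-coding mRNA in kb. The WT levels of Slc1a5 on this scale were 133, 152 and 131 CPM per kb, a mean of 139 ± 11.8 (SD, n = 3). Next came Slc1a4, at 9.71, 8.68 and 9.05 CPM per kb, and Slc1a1, at 8.12, 8.71 and 7.72 CPM per kb. Their libraries overlapped, so that the order of Slc1a4 and Slc1a1 in WT cannot be told from these replicates. Slc1a3 lay lower, between 0.499 and 0.53 CPM per kb in WT, and Slc1a2 lower again, between 0.0556 and 0.0967 CPM per kb. Slc1a6 and Slc1a7 were at the limit of detection, with at most 7 and 6 counts in any of the 6 libraries. In each genotype the libraries of Slc1a2 overlapped those of Slc1a6, and those of Slc1a6 overlapped those of Slc1a7. In Ocln-KO, Slc1a5 stood at 164 and Slc1a4 at 5.13 CPM per kb on average, and neither overlapped its neighbours in the order. Slc1a1 came after Slc1a3 there, with means of 0.334 and 0.581 CPM per kb, but its libraries overlapped those of Slc1a3 and of Slc1a2. The order of the 7 means was the same in each genotype when the union of all exons was used as the length.

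**Figure D1:**
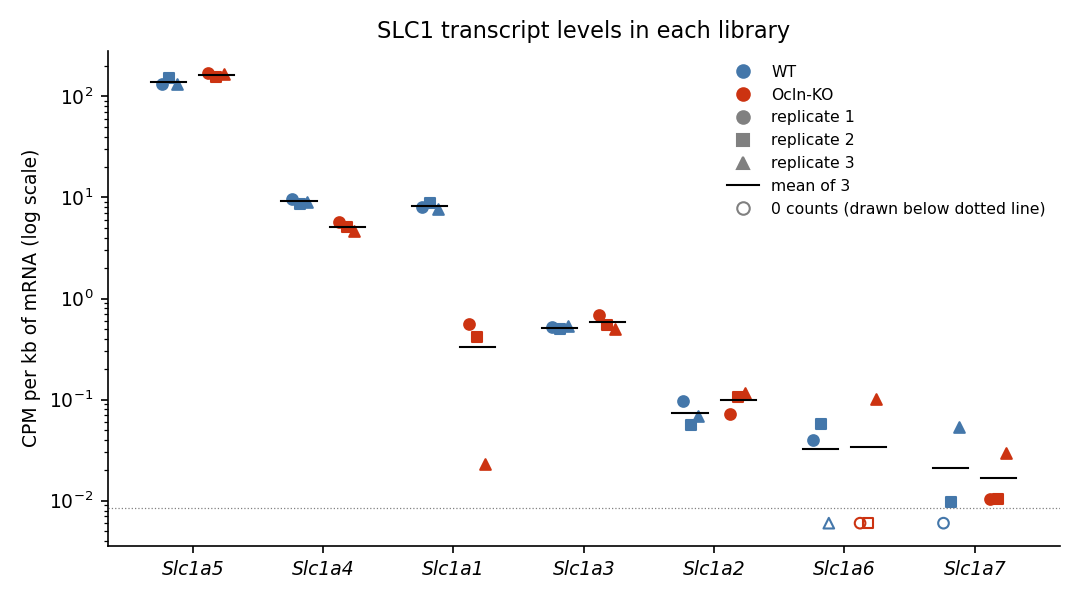
Level of each SLC1 gene in CPM per kb of mRNA (log axis) in the 3 WT (blue) and 3 Ocln-KO (red) libraries, with a line at each mean and libraries without a count drawn open below the dotted line. The Ocln-KO libraries of Slc1a1 lie at 0.557, 0.421 and 0.0233 CPM per kb, against 7.72 to 8.71 in WT, while Slc1a5 lies at or above 131 in every library.

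Slc1a1 lies on chromosome 19 from 28835049 to 28913960 (GRCm38, plus strand). It had 1155, 1131 and 1090 counts in WT, which is 30.8, 33.1 and 29.3 CPM, and 68, 51 and 3 counts in Ocln-KO, which is 2.12, 1.6 and 0.0887 CPM. The WT libraries lay close together and far above each Ocln-KO library, and within Ocln-KO replicate 3 was much lower than the others. Relative to the WT mean of 31.1 ± 1.91 CPM (SD, n = 3), replicates 1 and 2 held 6.81% and 5.14% of Slc1a1, and replicate 3 held 0.285%. These are 14.7-fold, 19.4-fold and 351-fold lower levels, and for the 3 counts of replicate 3 the 95% exact Poisson interval, 0.619 to 8.77 counts, allows between 120-fold and 1700-fold (counting error only). The fitted log2 fold change of Slc1a1 was -4.62 (SE 0.66), and -4.06 without replicate 3 (SE, standard error). This is the contrast on which Slc1a1 was selected, and among the 16356 genes tested with a mean of at least 1 CPM, 3 including Slc1a1 itself had a log2 fold change as low.

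The gap within Ocln-KO was not a property of all transcripts. The log2 CPM of Slc1a1 (with a prior count of 2) in replicate 3 was below the lower of replicates 1 and 2 by a difference of -3.50, and 46 of the 16356 genes, Slc1a1 included, had a gap at least as low. Replicate 3 was the lowest Ocln-KO library for 5932 of these genes. In whole tissue, fewer cells of a type and less RNA per cell cannot be told apart. Of the 6 clear cell markers, 4 were called lower, against 5.04% of all tested genes. Their summed levels were 94.8, 82.1 and 67.6 CPM in Ocln-KO, against 134 to 180 CPM in WT. Over the 6 spermatid and sperm markers, none of them called, they were 254, 270 and 64.2 CPM in Ocln-KO, against 189 to 252 CPM in WT. Over the 8 proximal principal cell markers, of which 4 were tested and none was called, the sums were 7821, 15871 and 13292 CPM in Ocln-KO, against 10131 to 14411 CPM in WT. The part of any of these cells in the level of Slc1a1 was not tested.

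On the opposite strand, 4430402I18Rik (chromosome 19, 28893042 to 28967800) shares exonic sequence with Slc1a1, covering 1216 of the 3800 bases (32%) of its mRNA. The libraries were directional, but the strand setting of the counting is not given in the sources used here, so reads of the shared exons cannot be assigned to either gene with certainty. This gene, named after its values were seen, had 408, 320 and 474 counts in WT and 82, 164 and 112 counts in Ocln-KO, a log2 fold change of -1.58 (SE 0.28, adjusted p = 0.0225, edgeR). Every Ocln-KO library of 4430402I18Rik was below every WT library, with replicate 1 the lowest, whereas for Slc1a1 replicate 3 was the lowest. Its log2 fold change was -1.59, -1.69 and -1.46 without WT replicates 1, 2 and 3, but the call for 4430402I18Rik was lost each time (adjusted p = 0.099, 0.0587 and 0.0962, edgeR), as it was with a replicate block (adjusted p = 0.0818, edgeR). Under the same settings few genes were called in all, 23, 230 and 56 without WT replicates 1, 2 and 3 and 41 with the block, in place of 1762.

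Among the other glutamate transporters no difference was called. Slc1a2, which clears most synaptic glutamate in the forebrain, had 42, 22 and 30 counts in WT and 27, 39 and 46 in Ocln-KO. The genotypes overlapped, and its log2 fold change was 0.41 (SE 0.39, adjusted p = 0.534, edgeR). Slc1a3, the GLAST carrier of glial cells, was steady in WT at 2.16, 2.08 and 2.21 CPM and had 2.87, 2.29 and 2.1 CPM in Ocln-KO. The estimated log2 fold change was 0.17 (SE 0.26, adjusted p = 0.707, edgeR), and again the genotypes overlapped. Slc1a6 had 3, 4 and 0 counts in WT and 0, 0 and 7 in Ocln-KO, and Slc1a7 had 0, 1 and 6 and then 1, 1 and 3. With so few counts in WT, a fall or a small rise of Slc1a6 or Slc1a7 could not have been detected. Per length, the highest library of these 4 genes, Ocln-KO replicate 1 of Slc1a3 at 0.688 CPM per kb, was far below the lowest WT library of Slc1a1 at 7.72 CPM per kb.

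Summed over the branch, the glutamate transporters had 8.77, 9.34 and 8.37 CPM per kb in WT and 1.33, 1.09 and 0.776 CPM per kb in Ocln-KO. Slc1a1 made up 92.5%, 93.3% and 92.2% of this sum in WT and 42%, 38.7% and 3.01% in Ocln-KO, and in Ocln-KO the larger part of the remainder was Slc1a3. Without Slc1a1, the sum was 0.656, 0.622 and 0.653 CPM per kb in WT and 0.771, 0.666 and 0.753 in Ocln-KO. The difference between the genotypes in the sum thus lay almost wholly in Slc1a1. Of the summed level of all 7 genes, glutamate transporters held 5.8%, 5.48% and 5.63% in WT and 0.756%, 0.675% and 0.448% in Ocln-KO. These sums contain Slc1a1 and are descriptions for the same reason as its fold change.

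**Figure D2:**
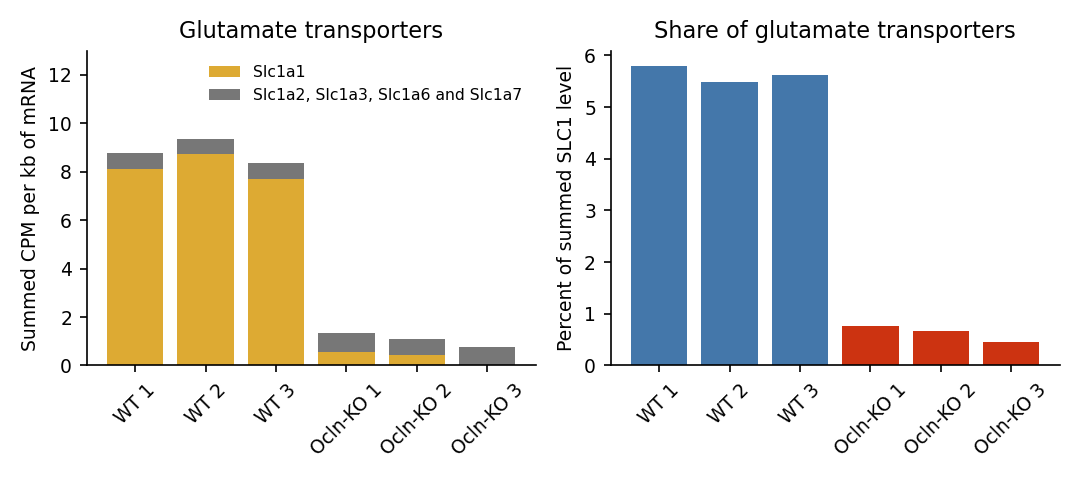
Left, summed level of the 5 glutamate transporters in CPM per kb of mRNA in each library, split into Slc1a1 (yellow) and the other 4 (grey); right, their percent of the summed level of all 7 SLC1 genes. The grey segment lies between 0.622 and 0.771 CPM per kb in all 6 libraries, while the yellow one nearly vanishes in Ocln-KO replicate 3.

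Of the 4 tested members other than Slc1a1, 1 was called, Slc1a4, which fell, at an adjusted p under 0.05 (the quasi-likelihood test of edgeR, adjusted after Benjamini and Hochberg), against a background of 8.95% of all tested genes called in either direction and 5.04% called lower. None was called higher, against 3.91%. Slc1a4 encodes ASCT1, an exchanger of alanine, serine and cysteine (chromosome 11, 20302180 to 20332713, minus strand). It stood at 38.1, 34.1 and 35.5 CPM (WT) and 22.2, 20.1 and 18.1 CPM (Ocln-KO). Every Ocln-KO library was below every WT library, and replicate 3 did not stand apart as it did for Slc1a1. The log2 fold change of Slc1a4 was -0.84 (SE 0.11, adjusted p = 0.0121, edgeR). It stayed between -0.91 and -0.75 over 14 alternatives, and the call was lost without WT replicate 1 (adjusted p = 0.0778, edgeR) and without WT replicate 3 (adjusted p = 0.0634, edgeR).

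Slc1a5 encodes ASCT2, a carrier of glutamine and other neutral amino acids (chromosome 7, 16781340 to 16798274, plus strand), and was by far the most abundant member. It had WT levels of 367, 421 and 363 CPM and Ocln-KO levels of 466, 428 and 464 CPM. The lowest Ocln-KO library lay just above the highest WT library, so the genotypes of Slc1a5 did not overlap. Its log2 fold change of 0.24 (SE 0.10) did not pass the test (adjusted p = 0.151, edgeR). Over the alternatives it ran from 0.20 to 0.32 and the adjusted p from 0.0864 to 0.361. Slc1a4 and Slc1a5 were thus the 2 of 4 tested members besides Slc1a1 whose genotypes did not overlap, one lower and one higher in Ocln-KO, where 36.3% of all tested genes did not overlap. In the same Ocln-KO libraries the sum of 7 macrophage markers, none of them called, was 172, 220 and 271 CPM, against 148 to 170 CPM in WT. That of 5 smooth muscle markers was 1566, 2080 and 1733 CPM, against 1151 to 1386 CPM. Of these 5, 1 was called higher, where 3.91% of all tested genes were. The part of macrophages and smooth muscle in the levels of Slc1a4 and Slc1a5 was not tested. Slc1a5 alone held 87.8%, 89.4% and 88.3% of the summed SLC1 level in WT and 96%, 96.2% and 96.9% in Ocln-KO.

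**Figure D3:**
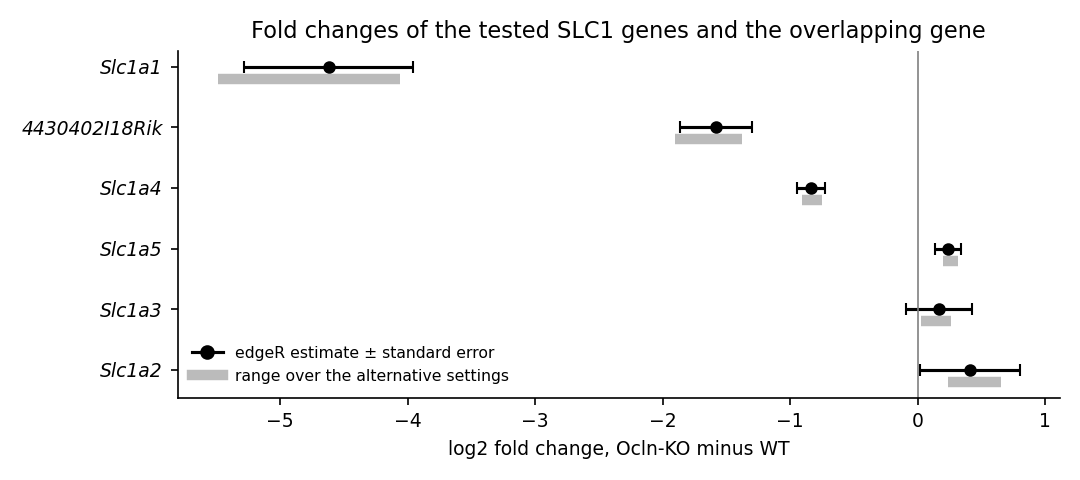
Log2 fold change, Ocln-KO minus WT, of the 5 tested SLC1 genes and of 4430402I18Rik, which overlaps Slc1a1 on the opposite strand (black point and bar, estimate ± standard error), with the range over the alternative settings in grey. Slc1a1 at -4.62 and Slc1a4 at -0.84 lie below 0, and Slc1a2, Slc1a3 and Slc1a5 lie between 0.17 and 0.41.

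The genes whose profile over the 6 libraries was most like that of Slc1a1 were Cyp2j11, Bsph2, Crhbp, Acsm2 and Astn2. Likeness was the root mean square difference of log2 CPM, each profile set to 0 at its WT mean, among the 16356 genes, and was 0.97 for Cyp2j11, 1.08 for Bsph2, 1.16 for Crhbp, 1.19 for Acsm2 and 1.22 for Astn2. Cyp2j11, a cytochrome P450 gene, was at 21.2, 18.6 and 19.1 CPM in the WT libraries and at 3.8, 3.61 and 0.0591 CPM in those of Ocln-KO. Bsph2, which encodes a sperm-binding protein secreted by the epididymis, stood at 218, 183 and 209 CPM (WT) and 45.7, 35.7 and 1.89 CPM (Ocln-KO). Both shared with Slc1a1 the very low value in replicate 3. So did Astn2, an astrotactin gene, at 2.9, 2.48 and 0.0887 CPM in Ocln-KO against 11 to 15 CPM in WT. The likeness measure includes Ocln-KO replicate 3, so this sharing follows in part from how the genes were chosen. Crhbp, the binding protein of corticotropin-releasing hormone, and Acsm2, a medium-chain acyl-CoA synthetase, were low throughout, with 2.05 to 3.63 and 1.1 to 3.55 CPM in WT, and each had libraries with no count in Ocln-KO. Slc1a4 was far from Slc1a1 on this measure, at 3.34 and place 944, and the targeted gene Ocln was at 2.32 and place 122.

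**Figure D4:**
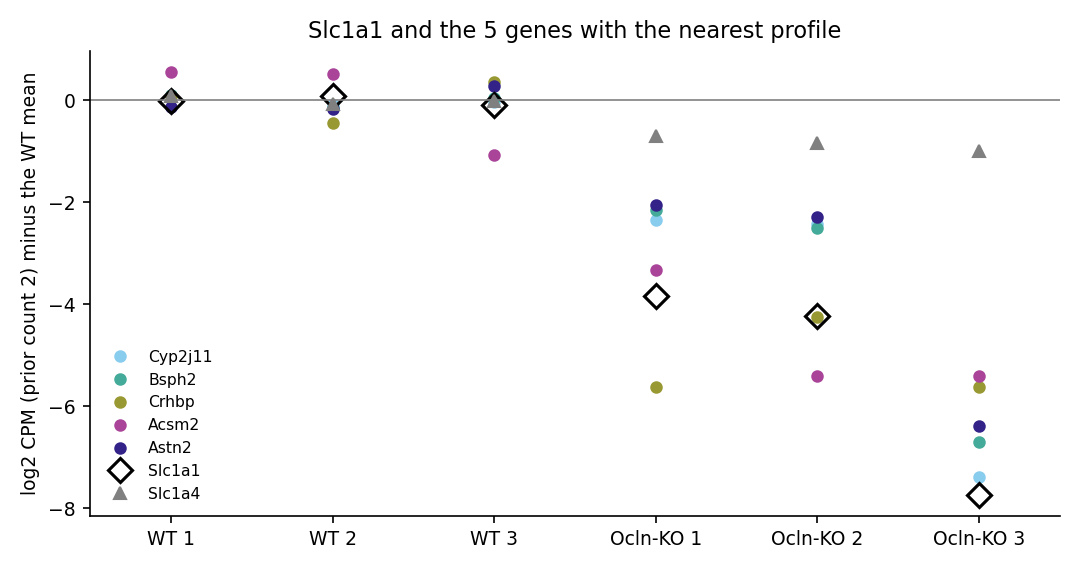
Log2 CPM (with a prior count of 2) minus the WT mean in each library for Slc1a1 (open diamond), the 5 genes with the nearest profile (circles) and Slc1a4 (grey triangle). Slc1a1 lies at -3.84, -4.23 and -7.73 in the Ocln-KO libraries, where Slc1a4 lies at -0.69, -0.84 and -0.99.

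Other genes that carry, make, use or sense the substrates of this family were then counted. Of 14 other carriers of glutamate, aspartate or cystine and their regulators, 10 were tested. At an adjusted p under 0.05 (edgeR), 3 were called lower and none higher, against 5.04% and 3.91% of all tested genes. By direction alone 8 were lower and 2 higher, with a median of -0.27 on the log2 scale, where that of all tested genes was 0.01. Slc25a22, a mitochondrial glutamate carrier, had WT levels of 101, 112 and 124 CPM and Ocln-KO levels of 63.5, 64.6 and 49.9 CPM (log2 fold change -0.92, edgeR adjusted p = 0.0137). Slc7a11, the xCT exchanger that releases glutamate for cystine, was at 623, 518 and 359 CPM in the WT libraries and at 317, 296 and 254 CPM in those of Ocln-KO (log2 fold change -0.79, edgeR adjusted p = 0.0465). Arl6ip5, whose product binds the Slc1a1 protein and lowers its transport, stood at 56.8, 49.7 and 65.1 CPM (WT) and 29.8, 34.2 and 41.4 CPM (Ocln-KO) (log2 fold change -0.70, edgeR adjusted p = 0.0331). The count of 3 was 0 when WT replicate 1, 2 or 3 was left out, where few genes were called in all (above). It was 1 without Ocln-KO replicate 1 or 2, where 8.14% and 2.76% of all tested genes were called. Slc7a11 lost its call in 8 of 14 alternatives, among them each fit with a library left out. Its adjusted p was 0.0659 without Ocln-KO replicate 3 and 0.0572 with total counts only (edgeR), where 1692 and 1848 genes were called in all. The log2 fold changes without WT replicates 1, 2 and 3 were -0.71, -0.80 and -0.60 for Arl6ip5 and -0.60, -0.77 and -0.98 for Slc7a11, and those of Slc25a22 ran up to -0.85.

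Of 28 enzymes of glutamate, glutamine, aspartate and glutathione metabolism, 24 were tested. Of these, 4 were called lower and none higher, against 5.04% and 3.91% of all tested genes. By direction alone 17 were lower and 7 higher, with a median log2 fold change of -0.26. Glud1, glutamate dehydrogenase, had WT levels of 195, 188 and 197 CPM and Ocln-KO levels of 123, 117 and 114 CPM (log2 fold change -0.71, edgeR adjusted p = 0.00849). Gclc and Gss, which make glutathione from glutamate, cysteine and glycine, had log2 fold changes of -0.45 (edgeR adjusted p = 0.0246) and -0.72 (edgeR adjusted p = 0.0268). Gpt2, a mitochondrial alanine aminotransferase, had a log2 fold change of -0.57 (edgeR adjusted p = 0.0334). Glul, glutamine synthetase, which makes a main substrate of Slc1a5, was at 2507, 2719 and 2034 CPM in the WT libraries and at 1624, 3635 and 4161 CPM in those of Ocln-KO and was not called (edgeR adjusted p = 0.473). It is named after its values were seen, for the split of replicate 1 from the others. The count of 4 enzymes was 0 without WT replicate 1 and 1 without WT replicate 2, WT replicate 3 or Ocln-KO replicate 2. It was 8 and 7 when Ocln-KO replicates 1 and 3 were left out. Of all tested genes, 0.113%, 1.13% and 0.276% were called without WT replicates 1, 2 and 3. Leaving out Ocln-KO replicates 1, 2 and 3 gave 8.14%, 2.76% and 8.31%.

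Of 24 neutral amino acid carriers outside the SLC1 family, 20 were tested. Of these, 4 were called higher and 1 lower, against 3.91% and 5.04% of all tested genes. By direction alone 14 were higher and 6 lower, with a median log2 fold change of 0.35. Slc7a8 (LAT2) rose from 20.3, 20.3 and 19.2 CPM in WT to 28.1, 31.1 and 36.3 CPM in Ocln-KO (log2 fold change 0.67, edgeR adjusted p = 0.0225). Slc38a9, a lysosomal arginine sensor, had a log2 fold change of 0.69 (edgeR adjusted p = 0.0214), and Slc36a2 had 2, 2 and 4 counts in WT and 16, 15 and 42 in Ocln-KO. Slc36a2 passed the count filter only through Ocln-KO and is given as a description. Among the 18 of these carriers with at least 10 counts in every library, 3 were called higher and 1 lower. Slc38a4 (SNAT4) fell from 226, 188 and 231 CPM to 106, 94.9 and 54.9 CPM (log2 fold change -1.34, edgeR adjusted p = 0.0214). The fourth carrier called higher, Slc38a5 (SNAT5, a glutamine carrier), overlapped between the genotypes and is named after its values were seen. It had 40.6, 51.7 and 35.6 CPM in WT and, in Ocln-KO, 46 CPM in replicate 1 but 1285 and 1145 CPM in replicates 2 and 3 (edgeR adjusted p = 0.0415, limma-voom adjusted p = 0.123). The SLC1 glutamine carrier Slc1a5 did not show this split, with 466, 428 and 464 CPM in the same libraries. The count of 5 carriers was 0 without WT replicate 1 or 3, where 0.113% and 0.276% of all tested genes were called. It was 1 without the second WT or the second Ocln-KO library, where 1.13% and 2.76% were called. When Ocln-KO replicate 1 was left out it was 8, where 8.14% of all tested genes were called.

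Of 26 glutamate receptor genes, 10 were abundant enough to be tested. Of these, 2 were called lower and 1 higher, against 5.04% and 3.91% of all tested genes. By direction alone 7 were lower and 3 higher, with a median log2 fold change of -0.54. Among the 7 with at least 10 counts in every library, 1 was called lower and 1 higher, and the median was -0.05. Grik4, a kainate receptor subunit, had a log2 fold change of -1.03 (edgeR adjusted p = 0.0319), and Grid1, a delta receptor, one of 1.41 (edgeR adjusted p = 0.0262). The count of 3 receptors was 0 without WT replicate 1, 2 or 3, where 0.113%, 1.13% and 0.276% of all tested genes were called. It was 2 when Ocln-KO replicate 1 was left out and 1 without Ocln-KO replicate 2, against 8.14% and 2.76%. Beside the counts with all 6 libraries stands the background of 8.95% of all tested genes. The lists hold too few genes for a share to be read closely.

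**Figure D5:**
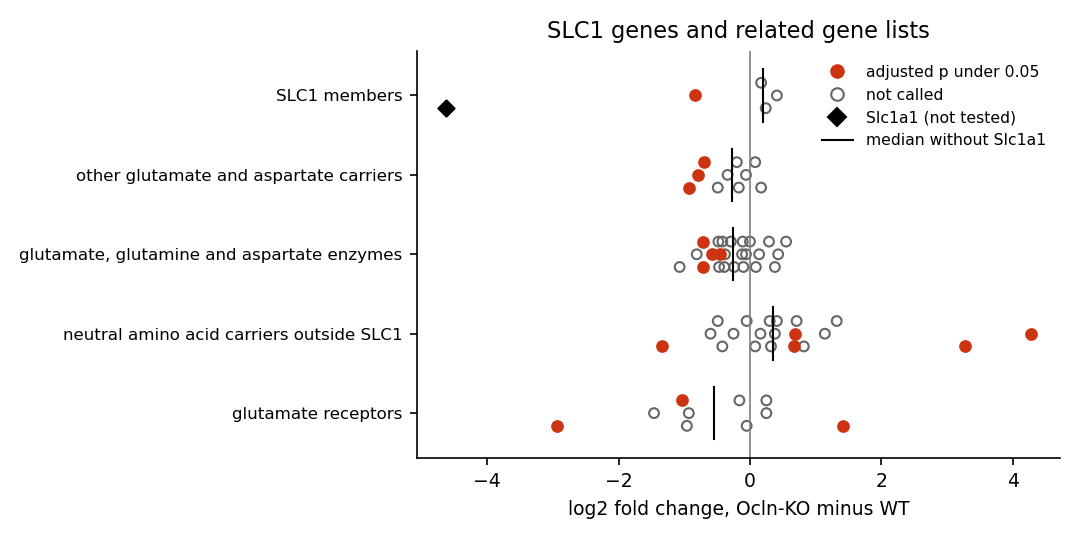
Log2 fold change, Ocln-KO minus WT, of each tested gene in the SLC1 family and in the 4 related lists, with genes at an adjusted p under 0.05 filled in red, Slc1a1 as a black diamond (selected on this contrast) and the median of each list, Slc1a1 left out, as a black line. Medians lie at 0.20 for the other SLC1 members, -0.27 for the glutamate and aspartate carriers, -0.26 for the enzymes, 0.35 for the neutral carriers and -0.54 for the receptors.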

How the data were processed

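For each of the 6 whole-epididymis libraries the authors deposited the count of reads per gene, without normalization. By their methods, RNA was depleted of rRNA and made into directional paired-end libraries, and reads were aligned to GRCm38 with HISAT2 (version 2.0.4 in the submitters' processing notes) and counted with HTSeq. The counting mode, the strand setting and the handling of reads with several alignments are not given in the sources used here. Any of these can shift the level of one gene against another.

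The analysis used edgeR 4.0.16 (R 4.3.3). Its filterByExpr kept 19691 of 32046 genes that had any count. TMM factors scaled the libraries, glmQLFit and glmQLFTest compared the genotypes unpaired (common dispersion 0.0577), and p-values were adjusted over every tested gene after Benjamini and Hochberg, with a threshold of 0.05. Each standard error is the log2 fold change over the root of F. With effective sizes between 31888423 and 37442412, 3 counts equal 0.0801 to 0.0941 CPM. With 3 libraries against 3, an exact permutation test cannot reach the threshold and none was run. Positions, mRNA lengths and coding sequences come from GENCODE M21 on GRCm38. Fits were tested on simulated data first.

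The members and the gene lists were chosen with earlier results of these data known. Named genes were the 7 members, Ocln, at most 6 genes of a list that were called and did not overlap between genotypes, and the 5 genes nearest to Slc1a1 in profile. Genes named outside this rule are marked. The values of 1 gene that met the rule are not reported here. The 14 alternatives were DESeq2 1.42.0, limma-voom (limma 3.58.1), a block for the replicate number, RLE factors, scaling by totals alone, TMM factors from which the 20 most abundant genes were left out, testing without a count filter, requiring 10 or more counts in each library, and leaving out each library in turn.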

Additional observations from a re-analysis of the deposited data

How the results depend on the processing

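The log2 fold change of Slc1a1 lay between -5.49 and -4.06 over 13 alternatives. It could not be fitted with at least 10 counts required in every library, because Ocln-KO replicate 3 has 3. Another 278 pairs of a gene and an alternative covered the other tested SLC1 members, 4430402I18Rik, Slc38a5 and the list genes that met the naming rule. Over these, no direction turned and 83 calls were lost. No gene gained a call, but only Slc1a2, Slc1a3 and Slc1a5 were uncalled at first and could gain one. Ocln, Glul and the genes nearest to Slc1a1 in profile were not among these pairs. The deviations of same-numbered libraries correlated at -0.0525, -0.0315 and -0.00256, so replicate numbers gave no sign of pairing. With 3 libraries per genotype these values cannot settle whether the mice were paired. With a replicate block, 41 genes in all were called in place of 1762. None of the other SLC1 members, the glutamate and aspartate carriers, the enzymes, the neutral carriers or the receptors was called with it. For Slc1a4 the adjusted p with the block was 0.0639. DESeq2 called 9 enzymes in place of 4 and 3312 genes in all, and limma-voom called 3 neutral carriers in place of 5. With each library left out in turn, the counts called ranged from 0 to 1 for the other SLC1 members, 0 to 2 for the carriers, 0 to 8 for the enzymes, 0 to 8 for the neutral carriers and 0 to 3 for the receptors, and genes called in all ranged from 23 without WT replicate 1 to 1692 without Ocln-KO replicate 3. The causes were not tested. With total counts only, the median change over tested genes was 0.09 on the log2 scale in place of 0.01. Depth limits Slc1a6, Slc1a7 and the Ocln-KO replicate 3 value of Slc1a1.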

Other observations

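Other amino acid carriers split within Ocln-KO in the way that Slc38a5 did, with replicate 1 apart from replicates 2 and 3. They are named after their values were seen. Slc16a10, an aromatic amino acid carrier, had WT levels of 111, 126 and 95.2 CPM and Ocln-KO levels of 80.1, 339 and 411 CPM (edgeR adjusted p = 0.127). Slc7a5 (LAT1), which exchanges glutamine for large neutral amino acids, was at 76.1, 77.3 and 66.9 CPM in the WT libraries and at 46.2, 143 and 200 CPM in those of Ocln-KO (edgeR adjusted p = 0.25). For both, replicate 1 lay below every WT library and replicates 2 and 3 above every WT library. At a low level, Slc6a15 had the same order, with 0.779, 2.6 and 3.13 CPM in Ocln-KO against 0.908 to 1.08 CPM in WT. None of the SLC1 genes showed that order. Slc1a2, at few counts, resembled Slc38a5, with 0.841 CPM in replicate 1 and 1.22 and 1.36 CPM in replicates 2 and 3. Its WT libraries lay between 0.644 and 1.12 CPM.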
